A study of Homo sapiens with 3 samples.

Results

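RBFOX2 is the RNA-binding member of the fusion protein in this experiment and is also a gene whose own RNA carried editing clusters. Its clusters are those whose deposited name gives the gene RBFOX2, and they numbered 17 of 14295, 16 of 15181 and 16 of 11367 clusters in replicates 1, 2 and 3. The samples are 3 replicates of HEK293T cells (lenti-X HEK293T, named HEK293XT in the labels), a human embryonic kidney line whose genotype is given as WT. Each carried RBFOX2 fused to the cytidine deaminase APOBEC1, switched on with doxycycline for 72 h. The labels name transient transfection as the treatment, while the growth protocol speaks of stable lines. All replicates share this 1 condition, and the editing that such cells show when they lack the fusion was not analysed here. A read from the introduced RBFOX2 sequence and a read from the cell's own RBFOX2 gene cannot be told apart in these counts. The study's text calls them biological replicates, but neither it nor the labels say whether they came from separate cultures. P-values over the 3 replicates thus measure only the spread of these samples, and exact tests between pairs of them cover counting error only.

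RBFOX2 is a splicing regulator with a single RNA recognition motif that binds GCAUG, and RBFOX proteins are known to act on the splicing of their own pre-mRNAs. APOBEC1, known for editing apolipoprotein B mRNA, converts C to U, and in STAMP (the fusion of an RNA-binding protein to this enzyme) the converted bases are read as a trace of where the protein was. FLARE calls clusters, which are stretches of RNA where more C bases were edited than a background rate predicts. For each cluster the files give edited bases, covered C bases (each C base counted in each read over it), edited reads and all reads. Edited bases divided by covered C bases give the edit fraction. Coverage is given below as covered C bases per C base, which is the average number of reads that show a base at a C of the cluster.

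All RBFOX2 clusters lie on the minus strand of chromosome 22 (hg19), and the deposited names number exons and introns together from the 3' end of the gene, so that exons have even numbers here. Clusters of different replicates that overlap by at least 1 base were taken as 1 locus, and where a segment holds several loci they are lettered from the 3' end. Coordinates printed below span the whole locus, and the cluster of a given replicate can be shorter. The clusters form 20 loci, of which 13 were found in all 3 replicates, 3 in a pair of replicates and 4 in a single replicate. Exons 2, 4, 10, 12, 14, 16, 18, 20, 22 and 24 hold 1 locus each, exon 26 holds 2, intron 31 holds 2, exon 32 holds 1 and exon 0, at the 3' end, holds 5. Up to exon 32, the highest number with a cluster, no cluster was called in exons 6, 8, 28 or 30. How far the gene extends beyond exon 32 was not looked up. A locus found in all 3 replicates was the majority in RBFOX2 and uncommon elsewhere, since of 33244 loci in the series 1586 (4.77%) were found in all 3. That share rises with coverage. Of 108 loci with a coverage of at least 1000 in some replicate, 70 (64.8%) were found in all 3, and in RBFOX2 this held for 12 of 14.

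**Figure D1:**
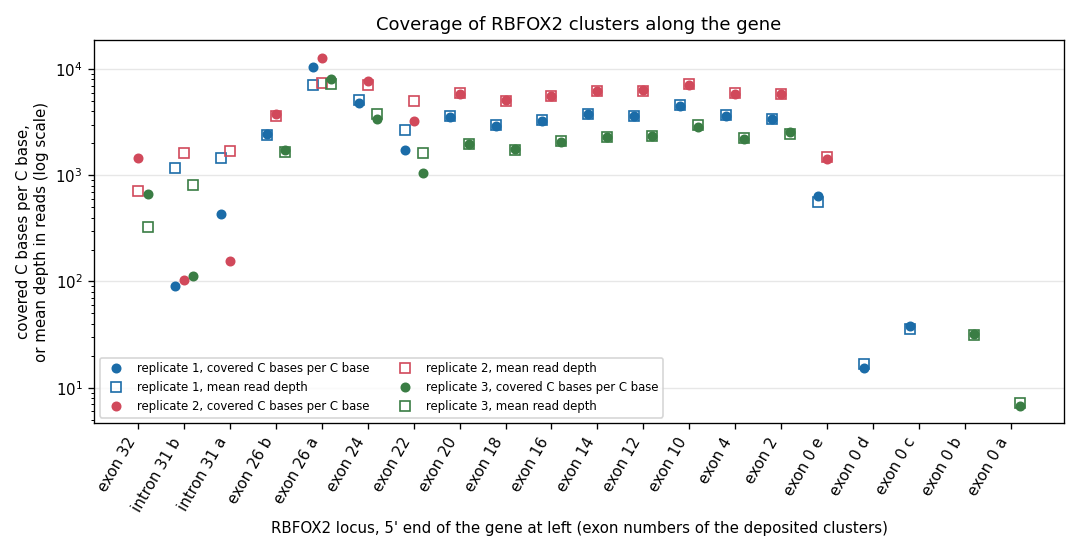
Coverage (filled circles, covered C bases per C base) and deposited mean read depth (open squares, reads) of every RBFOX2 cluster, on a log scale with 1 colour per replicate. The order of loci is from the most 5' at left to the most 3' at right. Loci from exon 26 to exon 2 lie between 1040 and 12816, the clusters far into exon 0 between 6.73 and 37.9, and the circles and squares part in intron 31, exon 22, exon 26 a and exon 32.

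Coverage was highest in exon 26 a and lowest at both ends of the gene and in intron 31. Over the 12 exonic loci found in all 3 replicates, the median coverage was 3571, 5881 and 2246 in replicates 1, 2 and 3. Relative to this median, 7 of the 12 loci had a mean between 0.9 and 1.3, while the whole range was 5.86-fold. Exon 26 a (36205828 to 36205962) stood highest, with a coverage of 10498, 12816 and 8150, the highest of any cluster in each replicate. Exon 22 (36174049 to 36174125) was lowest of the 12, with 1718, 3222 and 1040. By mean read depth, exon 26 b was lower than exon 22 in replicates 1 and 2 (2386 and 3594 against 2693 and 4964).

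At the 3' end, exon 0 e (36140244 to 36140288) had a coverage of 641 and 1426 in replicates 1 and 2 and no called cluster in replicate 3. With its near end 75 bases from the 5' end of that locus, exon 0 d (36140154 to 36140213) had a coverage of 15.4 in replicate 1. The clusters 4860 to 5355 bases from the same end had 37.9 in replicate 1 (exon 0 c) and 31.9 and 6.73 in replicate 3 (exon 0 b and exon 0 a). Coverage within exon 0 was thus far higher at its upstream side than further downstream. Since only called clusters were deposited, the coverage between them is not shown. At the 5' side, exon 32 (36236240 to 36236269) had a coverage of 1460 and 664 in replicates 2 and 3 and no called cluster in replicate 1.

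The replicates differed in the amount of RBFOX2 coverage and little in its profile. Coverage at a given exonic locus varied between replicates with a coefficient of variation of 22.2% to 56.0%. Once divided by the median over exonic loci of its replicate, it varied by 1.35% to 9.59% at 11 of the 12 loci, and by 24.9% at exon 26 a. The cluster of exon 26 a is longer in replicate 2, but replicates 1 and 3, with the same ends, also differed there (2.94 and 3.63 times the median). RBFOX2 clusters held 84983, 138088 and 56925 reads, which are 5.19%, 7.98% and 5.16% of all reads in clusters (1637592, 1731304 and 1104249).

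Loci whose clusters have the same ends in all 3 replicates allow the coverage itself to be compared. There are 174, of which 8 are in RBFOX2. Across its 7 exonic loci of this kind, coverage in replicate 2 was 1.65 times that in replicate 1 (median, range 1.54 to 1.88), while the median of the 166 other loci was 1.03, with 5th and 95th percentiles of 0.663 and 1.60. Coverage in replicate 3 over replicate 1 was 0.635 (range 0.605 to 0.709), against 0.816 in the other loci, whose 5th and 95th percentiles of 0.453 and 1.25 enclose every RBFOX2 value. These loci share 1 gene and are not independent, so the ratios are a description. Intron 31 b went another way, with 1.13 for replicate 2 over 1 and 1.23 for replicate 3 over 1.

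**Figure D2:**
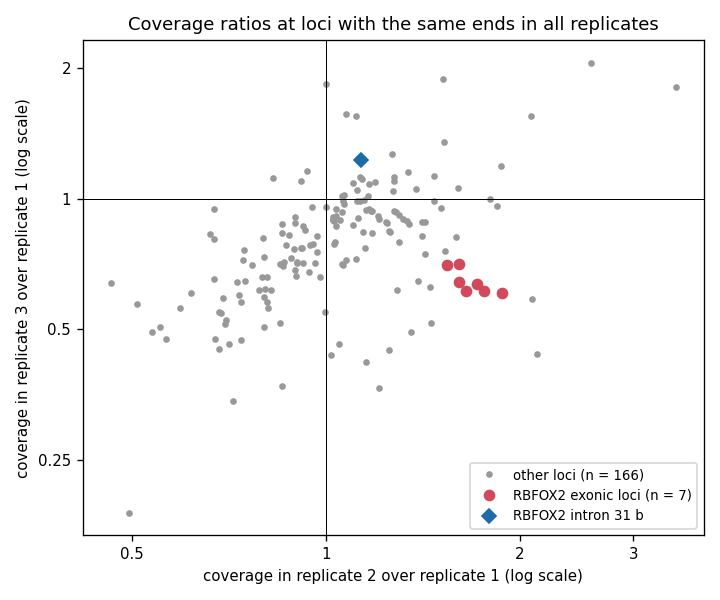
Coverage of replicate 2 (x axis) and of replicate 3 (y axis) over that of replicate 1, both on log scales, at the 174 loci with the same ends in all replicates. The 7 exonic RBFOX2 loci (circles) form a tight group at 1.54 to 1.88 on the x axis and 0.605 to 0.709 on the y axis, and intron 31 b (diamond) lies apart from them at 1.13 and 1.23.

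Edit fractions also differed along the exons. Among exons 2 to 26, exons 14 to 24, apart from exon 16, had the highest edit fractions, and those on either side were lower. These values are of the called clusters, and the edit fraction of parts of an exon without a call is not shown. Pooled over the 6 loci of exons 14 to 24, the edit fraction was 0.899%, 1.08% and 1.08% in replicates 1, 2 and 3 (mean 1.02% ± 0.105, SD, n = 3). Over the 4 loci of exons 2 to 12 it was 0.301%, 0.334% and 0.334% (0.323% ± 0.0193), and over the 2 loci of exon 26 it was 0.300%, 0.343% and 0.311% (0.318% ± 0.0224). No replicate of the first group overlapped the others, and the difference of 0.698 ± 0.0861 percentage points from exons 2 to 12 is larger than the spread between replicates. The grouping was chosen after the values were seen and has no test.

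**Figure D3:**
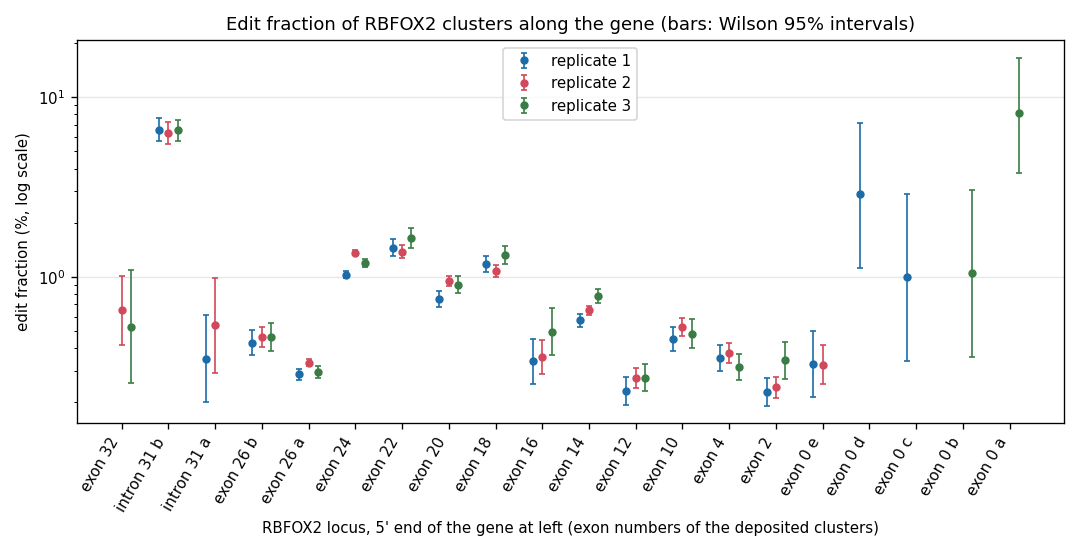
Edit fraction (percent of covered C bases, log scale) of every RBFOX2 cluster, with 1 colour per replicate and Wilson 95% intervals as bars. The order of loci is from the most 5' at left. Intron 31 b lies above 6% in each replicate, exons 18, 22 and 24 lie between 1.02% and 1.64%, and exons 2, 12 and 26 a lie below 0.35%.

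Among the exonic loci found in all 3 replicates, mean edit fractions spanned 5.76-fold, from 0.259% in exon 12 to 1.49% in exon 22. Exon 22 had 1.45%, 1.38% and 1.64% in replicates 1, 2 and 3 (mean 1.49% ± 0.137, SD, n = 3), from 324, 577 and 222 edited bases. Its mean read depth was 1.57, 1.54 and 1.56 times its coverage of C bases, a ratio whose median over exonic clusters was 1.01, 1.00 and 1.00. Whether what raises this ratio has a part in the place of exon 22 was not tested. By the share of edited reads the order was another, with exon 24 highest (mean 10.0% against 6.51% in exon 22) and exon 16 lowest (1.10%). That share is not scaled to the number of C bases, which was 39 in exon 24, 13 in exon 22 and 4 in exon 16. By edit fraction, exon 18 (36161471 to 36161530) followed with 1.18%, 1.07% and 1.32%, below exon 22 in each replicate. Exon 24 (36177648 to 36177793) had 1.02%, 1.36% and 1.19%, and its difference from exon 18 changed sign between replicates.

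Exon 20 (36164305 to 36164396) had 0.749%, 0.95% and 0.903%, below exon 24 in each replicate without overlap. Its cluster in replicate 1 starts at 36164320 and holds 14 C bases, against 17 in replicates 2 and 3. Exon 14 (36157250 to 36157341) had 0.572%, 0.648% and 0.782%, lower than exon 20 in each replicate although their ranges overlap. Exon 10 (36152153 to 36152191) had 0.447%, 0.523% and 0.482%, all below exon 14. From exon 10 downwards (exon 10, exon 26 b, exon 16, exon 4, exon 26 a, exon 2 and exon 12, with means from 0.484% to 0.259%) every neighbour in the order overlapped the next. With 3 replicates, an exact two-sided sign-flip permutation test cannot give a p below 0.25, so no step between neighbours can pass a threshold of 0.05.

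Exon 16 interrupts the more edited stretch. Its called cluster, between those of exons 14 and 18 (36157463 to 36157492), holds only 4 C bases in 30 and had an edit fraction of 0.337%, 0.358% and 0.495%. Its coverage of 3263, 5592 and 2071 was like that of its neighbours.

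Exon 24 and exon 26 a held the most edited bases and the most covered C bases of RBFOX2. Exon 24 held 36.1%, 38.5% and 36.7% of them (1893, 4051 and 1569 edited bases) from 20.4%, 18.9% and 20.3% of the covered C bases. Exon 26 a held the largest share of covered C bases, 32.3%, 34.0% and 35.2%, and a smaller share of edited bases, 16.0%, 17.0% and 15.8%. Together they held 53.3% ± 1.88 of the edited bases and 53.7% ± 1.54 of the covered C bases (SD, n = 3). Exon 24 also has the most C bases of the exonic loci apart from exon 26 a of replicate 2, with 39 in 146 bases, and 9.24%, 11.2% and 9.66% of its reads were edited.

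The edit fraction of RBFOX2 was compared with that of the other clusters. Pooled over its clusters it was 0.577%, 0.665% and 0.659%, and lower by 0.358 ± 0.0434 percentage points (SD, n = 3) than that of all other clusters, which was 0.972%, 0.975% and 1.03%. This direction held in 3 of 3 replicates, with p = 0.25 in an exact two-sided sign-flip permutation test, the smallest p that 3 replicates allow. It depended on the measure, since the share of edited reads was higher in RBFOX2 by 0.647 ± 0.338 percentage points. That share is not scaled to the number of C bases in a cluster. Among clusters with a mean depth of at least 50 the edit fraction was lower in RBFOX2, with a difference of -0.0788 percentage points. The other clusters are far shallower, with a median coverage of 22.8, 22.1 and 19.5 against 3263, 5734 and 2022 in RBFOX2. Edit fractions fell with coverage over all called clusters. In replicate 1 the median was 2.13% among clusters within a factor of 2 of the coverage of exon 0 d (15.4), 0.828% around that of intron 31 b (91.5) and 0.439% around that of exon 0 e (641). The calling sets a floor that is higher at low coverage, since a window needs at least 1 edit. Per the paper, windows with fewer than 50 reads also need a stronger signal. What part of the fall, and of the lower pooled fraction of RBFOX2, comes from the calling was not tested. Among clusters with a coverage of at least 1000, the direction was the opposite. The median edit fraction of RBFOX2 there was 0.439%, 0.491% and 0.488% (12, 14 and 12 clusters), and that of the other 64, 70 and 46 clusters was 0.372%, 0.338% and 0.356%. The difference of 0.117 ± 0.0454 percentage points had the same sign in 3 of 3 replicates, again with p = 0.25 in the exact sign-flip test.

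**Figure D4:**
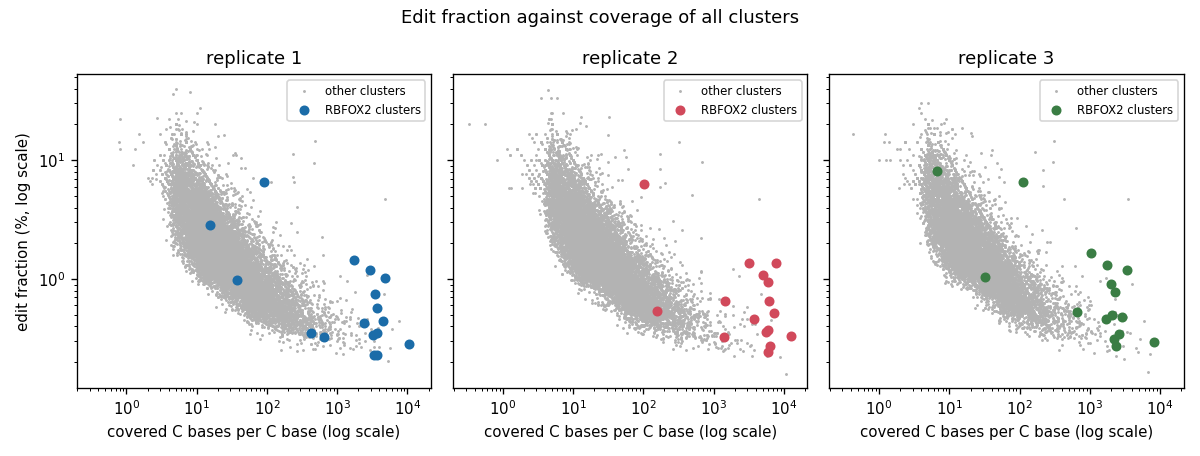
Edit fraction (percent, log scale) against coverage (covered C bases per C base, log scale) of all clusters, with RBFOX2 clusters in colour and 1 panel per replicate. Most RBFOX2 clusters lie at a coverage above 1000, where few others lie, and intron 31 b lies above the cloud at a coverage of 91.5, 104 and 113.

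Within this deep group RBFOX2 exons took places from near the bottom to near the top. The edit fraction of exon 22 was higher than that of 63 of 64, 69 of 70 and 45 of 46 other deep clusters, and that of exon 24 was higher than 61, 69 and 45 of them. Exon 2 (36142001 to 36142042) was higher than only 1, 5 and 19 of them, with 0.228%, 0.243% and 0.342%. Its cluster in replicate 3 starts at 36142016 and holds 8 C bases, against 15 in replicates 1 and 2. Of the RBFOX2 clusters in this group, 7 of 12, 10 of 14 and 8 of 12 lay above the median of the others.

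The locus intron 31 b (36234512 to 36234646) carries the names of an intron of RBFOX2 and of an intron of NDUFA9P1, a pseudogene of the complex I subunit NDUFA9. Its edit fraction was 6.60%, 6.32% and 6.52% (mean 6.48% ± 0.141, SD, n = 3), at a coverage of 91.5, 104 and 113. Of the other clusters whose coverage lay within a factor of 2 of this, 3 of 3308, 6 of 3033 and 3 of 1845 had a higher edit fraction, and the median of those clusters was 0.828%, 0.785% and 0.758%. None of the 17, 12 and 11 intronic clusters among them was higher. The locus held 1.81% to 4.99% of the edited bases of RBFOX2 from 0.190% to 0.504% of its covered C bases. The edited bases of the locus equal 1.91, 1.83 and 1.89 C bases edited in every covering read, of 29 C bases in it. The edited reads of the locus (110, 124 and 137) outnumbered its coverage in each replicate. Whether the edits sit at a few C bases that differ from hg19 in most reads was not tested. Which of the 2 genes its reads come from was not tested. Its neighbour intron 31 a (36234377 to 36234436) was called in replicates 1 and 2 only, with 0.350% and 0.536%.

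In intron 31 b the share of edited reads and the edit fraction gave different pictures. Edited reads numbered 110 of 1301, 124 of 1677 and 137 of 874, or 8.46%, 7.39% and 15.7%, while the edit fraction stayed within 6.32% to 6.60%. The deposited mean read depth there was 1177, 1605 and 802, which is 12.9, 15.5 and 7.12 times the coverage of C bases. In exonic clusters of the series this ratio has a median of 1.01, 1.00 and 1.00, and in intronic clusters of 1.88, 2.84 and 1.75. The read depth of the locus had the order of the exons, highest in replicate 2 and lowest in replicate 3, while its coverage of C bases was highest in replicate 3.

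Whether the edited reads of a locus differed between libraries was tested over all loci with the same ends in all 3 replicates, by two-sided Fisher's exact tests of edited against unedited reads with Benjamini-Hochberg adjustment over 522 tests. This compares libraries, not conditions, and covers counting error only. In RBFOX2, 5 of 24 tests had an adjusted p under 0.05, against 1.34% of all 522 tests (7 in number). Among loci with at least 1000 reads in each replicate it was 3 of 21 against 5.13% of 78. Both shares over all loci include the RBFOX2 tests. The test can call smaller differences where there are more reads, and RBFOX2 loci were not matched to other loci in reads. Over all loci 1.72% of 174 tests were called between replicates 1 and 2, and 1.15% both between replicates 1 and 3 and between replicates 2 and 3. The loci called were exon 24, exon 14 and intron 31 b.

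In exon 24 the edited share was 11.2% in replicate 2, higher than the 9.24% of replicate 1 (exact test, adjusted p = 1.02e-06) and the 9.66% of replicate 3 (exact test, adjusted p = 0.00476). In exon 14 it was 5.28% in replicate 1 and 6.95% in replicate 3 (exact test, adjusted p = 0.0358). In intron 31 b, replicate 3 was higher than replicate 1 (exact test, adjusted p = 5.01e-05) and replicate 2 (exact test, adjusted p = 1.22e-07). The test was repeated with edited bases against covered C bases, where 2.11% of 522 tests were called. It treats bases as independent, which bases of 1 read are not, so its p can be too small. Exon 24 was called between every pair of replicates, also between replicates 1 and 3, where edited reads gave no call. Exon 14 was called between replicates 1 and 3, but the 3 adjusted p of intron 31 b were 1. The call in intron 31 b thus depends on whether reads or covered C bases are the denominator. With loci matched by overlap (0.206% of 3891 tests called), exon 20 and exon 26 a were called as well and exon 14 was not. Exon 20 was called only between replicates 1 and 2, whose clusters there are of unlike length, 77 and 92 bases. Exon 26 a was called only between replicates 1 and 3, whose edit fractions there were 0.285% and 0.295%.

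In exon 26 a the deposited quantities parted in another way. The coverage of C bases was 1.47, 1.73 and 1.14 times the mean read depth of 7120, 7416 and 7169 in replicates 1, 2 and 3. No cluster of the series had a mean read depth above 8012, 8001 and 7169 in these replicates. The cluster of exon 26 a holds 28, 42 and 28 C bases in replicates 1, 2 and 3. Edited bases per edited read, which are not scaled to this number, were 2.03, 2.47 and 1.5, in the same order as the coverage of 10498, 12816 and 8150. The first 2 values are the highest among 76 and 84 clusters with a coverage of at least 1000, and the third ranks 11 of 58, where the medians were 1.26, 1.27 and 1.24. In exon 24 these values were 1.52, 1.80 and 1.66. Edited reads outnumbered edited bases in 28, 12 and 11 clusters of the series, none of them in RBFOX2, so these counts do not have the same basis in every cluster. Whether a ceiling on counted depth has a part in them was not tested. The share of edited reads of exon 26 a was 2.32%, 2.68% and 3.32%.

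**Figure D5:**
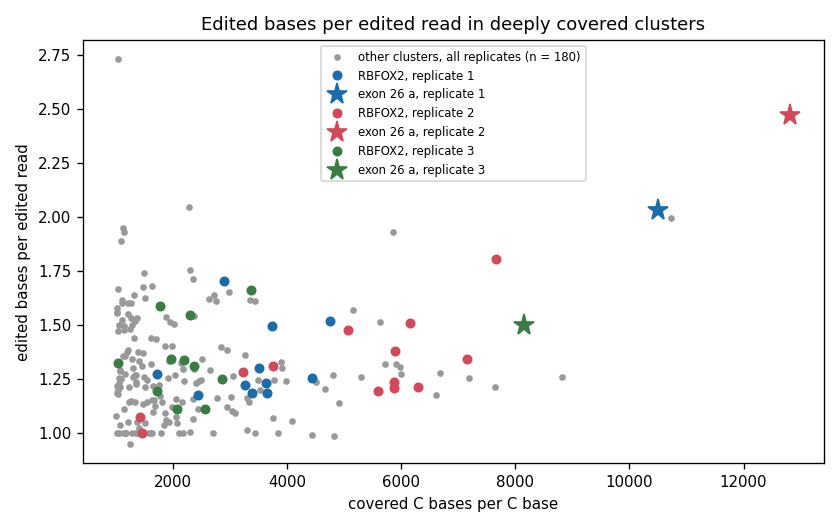
Edited bases per edited read against coverage (covered C bases per C base) in clusters with a coverage of at least 1000, with RBFOX2 clusters in colour by replicate, exon 26 a as stars and other clusters in grey. The stars lie at 1.5, 2.03 and 2.47 in the order of their coverage of 8150, 10498 and 12816. The cluster at 2.47 is longer, with 42 C bases against 28 in the other stars.

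At the sparsely covered end of the gene, the values rest on few reads. Exon 0 a (36134859 to 36134933) had an edit fraction of 8.11% (Wilson 95% interval 3.77% to 16.6%) in replicate 3, from 6 edited bases, with 1 of 19 reads counted as edited. Exon 0 d had 2.88% (1.12% to 7.17%) in replicate 1, from 4 edited bases, with 1 of 20 reads counted as edited. Exon 0 c had 0.99% (0.337% to 2.87%) in replicate 1 and exon 0 b 1.05% (0.356% to 3.03%) in replicate 3, each with 3 edited bases. None of these 4 loci was called in a further replicate. Exon 0 e, by contrast, had 0.328% and 0.324% in replicates 1 and 2, from 21 and 60 edited bases. Exon 32 had 0.651% and 0.527% in replicates 2 and 3, from 19 and 7 edited bases, at only 2 C bases in 30. Its mean read depth of 718 and 325 was below its coverage of 1460 and 664. The Wilson intervals treat bases as independent, which bases of 1 read are not, and PCR copies were not marked by molecular identifiers.

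RBFOX2 ranked first in covered C bases in each replicate, with 8.44%, 13.2% and 8.38% of all, and the next names, the read-through transcript RPL36A-HNRNPH2 and the ribosomal protein gene RPL36A, held 1.56% to 2.23%. By number of clusters it ranked 1, 1 and 3. Among 782 genes with at least 3 clusters in each replicate, likeness was measured as the distance over 6 values, the log2 pooled edit fraction and the log2 coverage of each replicate. The closest were RPL36A (distance 1.44) and, with the same clusters and so the same distance of 1.53, the ribosomal protein gene RPL23 and SNORA21, a small nucleolar RNA named for the same clusters. With 3 samples of 1 condition this is a likeness of level and not of a pattern.

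RBFOX proteins work in a large assembly of splicing regulators, and all the partners described here had clusters in every replicate. RBFOX1 and RBFOX3, the paralogs of RBFOX2, were named by no cluster. The pooled edit fraction was above that of RBFOX2 in each replicate for HNRNPM, HNRNPH1 and MATR3, all RNA-binding proteins of the nucleus. MATR3 had the highest mean of the partners described, with 1.29%, 0.834% and 1.3%. The edit fraction was below that of RBFOX2 in each replicate for ILF2 (0.410%, 0.433% and 0.427%), and for DDX5, an RNA helicase (0.530%, 0.397% and 0.475%). HNRNPC, which binds uridine-rich RNA, crossed it with 0.619%, 0.520% and 0.542%. The mean coverage of these genes was 74.9 to 474, far below that of RBFOX2, so the edit fractions are given side by side without a test.

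The files hold no expression table, and a gene without a cluster may still be expressed. Of 4 genes listed for the HEK293 line, the neurofilament genes NEFM and NEFL had clusters in every replicate and PAX2 and LHX1 had none, and the leukocyte, liver, erythroid and fibroblast genes PTPRC, ALB, HBA1 and COL1A1 had none. APOBEC1 was named by no cluster.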

How the data were processed

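Per the labels, polyA RNA of 3 replicates was sequenced, and the submitters' processing notes name STAR and hg19. The authors called C-to-U positions with SAILOR, took out common SNPs, used a zero-truncated Poisson test on 30-base windows at an adjusted p of 0.1, merged windows within 15 bases and scored clusters, each replicate apart. The deposited counts of bases and reads are unscaled, the fractions of the authors equal their ratios in all clusters (tolerance 1e-09), the deposited mean depth is a coverage signal not scaled to library size, and the deposited score is a negative binomial probability. Only called clusters were analysed, so depth of the libraries is not shown, and precision follows the reads of each cluster.

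Counts, Wilson 95% intervals, Fisher's exact tests and exact sign-flip tests were computed with Python 3.11.15, NumPy 2.4.6, pandas 2.3.3 and SciPy 1.17.1, and the code was tested on simulated data. Starts are printed from 1. Every RBFOX2 cluster was described. Other genes named were the 3 most like it, those overlapping its clusters, those ranking next in covered C bases, and the listed partners and cell markers. A listed partner is not reported here. The members, lists and tests were chosen with earlier results of these data known, and the limit of 1000 covered C bases per C base, the exon groups and the coverage ratios after their values were seen. Sequences, motifs and exon annotation of hg19 were not used here.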

Additional observations from a re-analysis of the deposited data

How the results depend on the processing

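No paired analysis was possible because the samples form 1 group. The lower pooled edit fraction of RBFOX2 against all other clusters (-0.358 percentage points) kept its sign with a score of at least 0.99, a mean depth of at least 50 (-0.0788), medians (-1.15), without intronic clusters and without exon 26 a (-0.189), and was -0.382 to -0.340 with each replicate left out. It reversed with the share of edited reads, where RBFOX2 was higher by 0.647 percentage points, and with medians over clusters with a coverage of at least 1000, where it was higher by 0.117, an alternative chosen after seeing the data. The pooled edit fraction of RBFOX2 moved from 0.634% to 0.544% with the median over clusters and to 0.803% without exon 26 a, and was 0.618% to 0.662% with each replicate left out. The difference between exons 14 to 24 and exons 2 to 12 moved from 0.698 to 0.548 percentage points without exon 24. It was 0.672 to 0.747 with each replicate left out. By the share of edited reads, another quantity that is not scaled to C bases, it was 4.55 percentage points, with the same sign. All alternatives for this difference were chosen after seeing the data. Clusters per replicate numbered 16.0 to 16.5 with each replicate left out and 15 to 15.7 under the other alternatives, the 13 loci in all 3 replicates were 13 under each of 3 alternatives, and the loci that differed between replicates numbered 2 to 4 against 3. Coverage of replicate 2 over replicate 1 was 1.64 by mean depth. Leaving out 1 of 3 replicates cannot move their mean by as much as their spread.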
